A study of Mus musculus with 5 samples.

Results

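The major histocompatibility complex (MHC) genes examined here were 8 of the 15287 genes in a table of single-cell transcript counts from mouse bone marrow. They were chosen by name, with earlier results of these data known. H2-K1 and H2-D1 encode the heavy chains of the classical class I molecules, and B2m encodes beta-2-microglobulin, the light chain they share. Cd74 encodes the invariant chain that guides newly made class II molecules to endosomes. H2-Aa and H2-Ab1 encode the alpha and beta chains of the class II molecule I-A, H2-Eb1 encodes the beta chain of I-E, and H2-DMa encodes a chain of the peptide-loading molecule H2-DM. The question put to these genes was how class I compares with class II in hematopoietic stem cells (HSCs) and in the progenitors around them.

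All cells came from untreated Fgd5CreERT2/+Rosa26Tomato/+ mice of 20 weeks, in which 1 copy of Fgd5, a gene active mainly in HSCs within the marrow, carries a ZsGreen reporter and a tamoxifen-dependent Cre. 3 libraries held lineage-negative, CD45.2+ and c-kit+ cells (Lin-kit+; 11581 cells). 1 library held the cells of that gate that were also ZsGreen+ (Fgd5+; 793 cells), and 1 held ZsGreen+ cells gated in addition as Sca1+, CD150+ and CD48- (HSC-Fgd5+; 519 cells). The Fgd5 locus drives both reporter and Cre, and all cells, Lin-kit+ cells included, carried 1 altered Fgd5 copy. The table names libraries by barcode suffix alone, and the suffixes were tied to the populations through the cell numbers of the study. Titles and gates in the sample labels disagree on which ZsGreen+ sample had the additional HSC gate, so the names Fgd5+ and HSC-Fgd5+ rest on cell numbers. Neither the labels nor the study's methods give the number of mice, and n counts libraries.

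Class I molecules present peptides made inside the cell to CD8 T cells and are carried by nearly all nucleated cells. Class II molecules present peptides taken up from outside to CD4 T cells, and are best known from dendritic cells, B cells and macrophages. Both sets are transcribed from compact promoters that hold a Y box, bound by the factor NF-Y, and X boxes, bound by the RFX complex and by CREB family factors. The coactivator Ciita acts on class II promoters and its relative Nlrc5 on class I promoters.

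The stretches of sequence that the classes share are shown for the members with a single start site in the RefSeq promoter table (GRCm38.p6). Each run holds the 200 bases before the start, 5′ to 3′ on the strand of the gene. B2m stood at chr2:122147487-122147686 (plus strand), H2-D1 at chr17:35262894-35263093 (plus), H2-Aa at chr17:34287824-34288023 (minus) and H2-Eb1 at chr17:34305667-34305866 (plus). Capitals mark the letters of the Y box core, GATTGG, and of the X2 box core, TGACG, on either strand.
B2m: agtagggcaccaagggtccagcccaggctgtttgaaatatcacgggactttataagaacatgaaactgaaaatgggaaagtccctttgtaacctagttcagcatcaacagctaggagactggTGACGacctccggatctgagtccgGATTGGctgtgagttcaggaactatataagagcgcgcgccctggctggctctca
H2-D1: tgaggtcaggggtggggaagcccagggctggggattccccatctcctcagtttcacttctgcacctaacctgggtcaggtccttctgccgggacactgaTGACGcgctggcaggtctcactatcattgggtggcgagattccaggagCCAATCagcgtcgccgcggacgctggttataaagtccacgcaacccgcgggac
H2-Aa: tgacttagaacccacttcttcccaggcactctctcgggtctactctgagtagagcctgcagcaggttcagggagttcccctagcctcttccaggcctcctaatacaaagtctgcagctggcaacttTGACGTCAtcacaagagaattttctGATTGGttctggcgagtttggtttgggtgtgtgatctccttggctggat
H2-Eb1: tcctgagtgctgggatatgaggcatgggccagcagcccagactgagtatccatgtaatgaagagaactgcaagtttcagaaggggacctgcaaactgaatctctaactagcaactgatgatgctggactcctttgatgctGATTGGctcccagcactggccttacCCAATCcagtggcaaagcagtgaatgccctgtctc

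All 4 runs held GATTGG or its reverse complement, which 12.9% of 32851 promoters held in the same window, and H2-Eb1 held it once on each strand. TGACG stood in B2m, H2-D1 and H2-Aa, against 15.7% of promoters. In H2-Aa the letters overlap on both strands, so that the capitals there run through 1 palindrome. The class I gene B2m and the class II gene H2-Aa thus hold the same pair of cores in the same order, which is a match of letters only. H2-K1 and H2-DMa have more than 1 start site in that table, and H2-Ab1 and Cd74 were not used.

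In the GRCm38 annotation (GENCODE M21, the mm10 build that the submitters name), H2-DMa spans 34119541 to 34139101 of chromosome 17, H2-Ab1 34257689 to 34269419, H2-Aa 34282744 to 34287823 and H2-Eb1 34305867 to 34316674. The class I heavy chains flank this class II block, H2-K1 at 33996017 to 34000347 and H2-D1 at 35262730 to 35267499. B2m lies apart, at 122147686 to 122153083 of chromosome 2. The assay counts 3′ ends of transcripts through unique molecular identifiers (UMIs), 1 per captured molecule, so values are not scaled by gene length. None of 403 windows of 98 bases in the last 500 transcript bases of each member was shared with another annotated gene. H2-DMa overlaps Brd2 on the opposite strand (3946 UMIs in the table), and no other member overlapped a gene with over 9 UMIs.

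The libraries held 2166655 to 36080242 UMIs, with medians of 3721 to 6567 UMIs per cell. Levels are given as CPM, the UMIs of a gene scaled to 1000000 UMIs of the same cells. Cells were clustered without the MHC and antigen-processing genes, so the members had no part in the clusters, and clusters were named from marker lists. 1288 of the 1312 reporter-positive cells fell into a pair of HSC-like clusters in which 10 of 10 HSC markers were raised. A filter of at least 1000 UMIs and under 10% mitochondrial UMIs kept 405 of 519 HSC-Fgd5+ cells and 790 of 793 Fgd5+ cells. 62 barcodes occurred in more than 1 library, 17 of them shared between a reporter-positive and a Lin-kit+ library, and 154 cells were called doublets. Leaving out every cell with such a barcode moved no MHC gene by more than 1.07% of its CPM in any library.

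Class I transcripts were more abundant in the reporter-positive libraries than in Lin-kit+ cells, for the heavy chains and the light chain alike. H2-K1 stood at 582, 598 and 622 CPM in Lin-kit+ libraries a, b and c, at 1592 CPM in Fgd5+ and at 1788 CPM in HSC-Fgd5+ cells. H2-D1 stood at 941, 947 and 818 CPM in the Lin-kit+ libraries against 1826 and 1936 CPM. B2m stood at 2419, 2474 and 2624 CPM against 4845 and 4645 CPM. For each of the 3 genes both reporter-positive libraries lay above all Lin-kit+ libraries, with no overlap. How many of all genes lay apart in this way was not counted. Summed over the 3 genes the level was 4008 ± 61.4 CPM (SD, n = 3) in Lin-kit+ and 8264 and 8369 CPM in the reporter-positive libraries, a ratio of 2.07. The reporter-positive libraries differed from Lin-kit+ in most genes, with 63.1% of 11991 genes past the threshold of the test given next. With library totals, the scaling of CPM, 54.9% of genes were called higher.

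**Figure D1:**
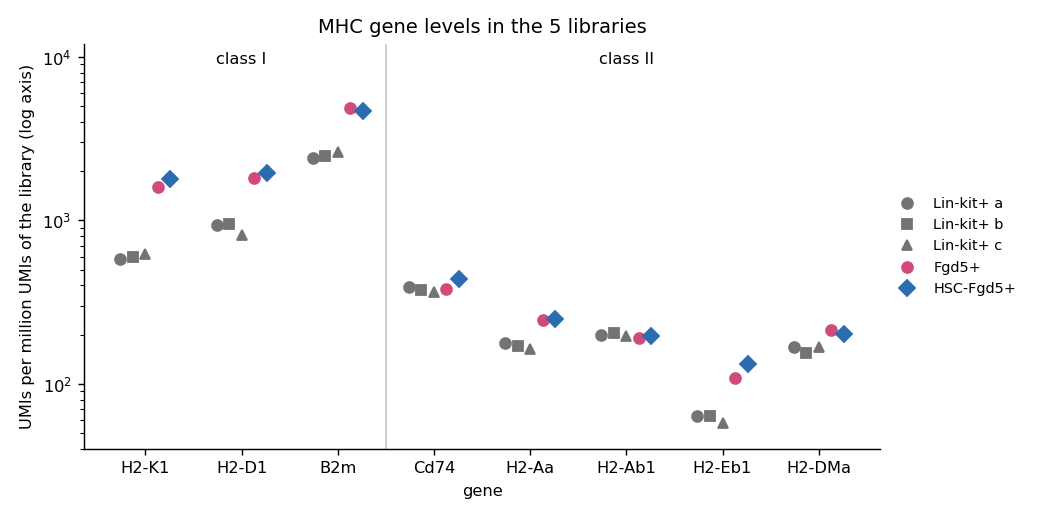
Level of each MHC gene in each library, in CPM on a log axis. Each point is 1 library. The 3 class I genes are higher in both reporter-positive libraries, while Cd74 and H2-Ab1 lie at about the same height in all 5 libraries.

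Tested over all genes with edgeR's quasi-likelihood test (TMM scaling, Benjamini-Hochberg adjustment), H2-K1 rose by a log2 fold change of 0.95 ± 0.07 (SE; adjusted p = 4.12e-05). H2-D1 rose by 0.52 ± 0.09 (edgeR adjusted p = 0.00197) and B2m by 0.38 ± 0.08 (edgeR adjusted p = 0.00431). At the threshold of 0.05, the 63.1% of all genes divided into 32.7% that rose in the reporter-positive libraries and 30.4% that fell. Of the 8 MHC genes 6 passed it, of which 4 rose and 2 fell. With library totals in place of TMM, 71.5% of genes passed, 54.9% higher and 16.6% lower, and the median log2 fold change of all genes shifted from 0.07 to 0.60. The class I genes were higher under both scalings (H2-K1 1.49, H2-D1 1.06 and B2m 0.92 on the log2 scale with totals) and lay above the median of all genes in each. A share of 6 in 8 is near the 63.1% of all genes, so the count does not set the MHC genes apart. In library sums a change in the mix of cells and a change of RNA per cell cannot be told apart. With the filter on cells the class I genes rose by 0.95, 0.54 and 0.43. Whether libraries came from separate mice is not stated, so these p-values measure the spread between libraries, which may be technical.

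Class II differed from class I in this comparison. Cd74 stood at 393, 373 and 364 CPM in the Lin-kit+ libraries, at 382 CPM in Fgd5+ and at 438 CPM in HSC-Fgd5+ cells, so the groups overlapped. H2-Ab1 stood at 200.1, 205 and 196 CPM against 191 and 195 CPM, a difference of a few percent. H2-Aa stood at 178, 170 and 164 CPM against 244 and 250 CPM. H2-Eb1, the least abundant member, stood at 63.7, 63.5 and 57.7 CPM against 109 and 133 CPM. H2-DMa stood at 168, 154 and 167 CPM against 213 and 201 CPM. H2-Aa, H2-Eb1 and H2-DMa were thus higher in both reporter-positive libraries on the CPM scale, and H2-Ab1 was slightly lower in both. With library totals, the scaling of CPM, 54.9% of all genes were called higher, so being higher on that scale does not set genes apart.

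For the class II genes the direction of the test depended on the scaling. With TMM, Cd74 fell by 0.42 ± 0.08 on the log2 scale (edgeR adjusted p = 0.00325) and H2-Ab1 by 0.59 ± 0.07 (edgeR adjusted p = 0.000285). H2-Eb1 rose by 0.43 ± 0.10 (edgeR adjusted p = 0.00966). H2-Aa had a log2 fold change of -0.0030 ± 0.07 (edgeR adjusted p = 0.976) and H2-DMa one of -0.19 ± 0.08 (edgeR adjusted p = 0.0666). With library totals Cd74 stood at 0.12 (edgeR adjusted p = 0.226) and H2-Ab1 at -0.05 (edgeR adjusted p = 0.523), and H2-Aa, H2-Eb1 and H2-DMa passed the threshold at 0.54, 0.97 and 0.35. H2-Eb1 was the 1 class II gene called higher under both scalings. Without the HSC-Fgd5+ library its change was 0.28 (edgeR adjusted p = 0.0739). Relative to the median of all genes, Cd74, H2-Aa, H2-Ab1 and H2-DMa lay below it and H2-Eb1 above it under either scaling.

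**Figure D2:**
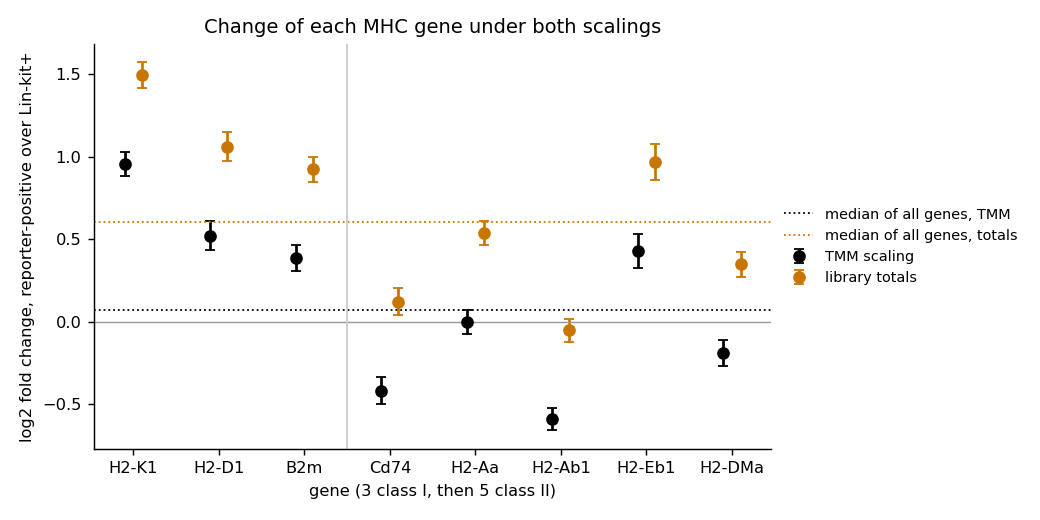
Log2 fold change of each MHC gene, reporter-positive over Lin-kit+ libraries, with TMM scaling (black) and library totals (orange). Bars are standard errors from edgeR over 2 and 3 libraries, and dotted lines give the median of all genes under each scaling. H2-K1, H2-D1, B2m and H2-Eb1 lie above 0 under both, and Cd74, H2-Aa and H2-DMa change sign.

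Within a library the classes can be set against each other without any scaling. Class I UMIs outnumbered the UMIs of the 5 class II genes 3.93, 4.17 and 4.28 times in the Lin-kit+ libraries, 7.25 times in Fgd5+ and 6.88 times in HSC-Fgd5+ cells. The ratio was higher in both reporter-positive libraries than in every Lin-kit+ library, by 1.71-fold (0.78 on the log2 scale; exact permutation test over libraries, two-sided p = 0.1, which is the smallest p that 2 against 3 libraries allow). This ratio turned on a small share of the Lin-kit+ cells. Without clusters 11, 14 and 17, which were chosen after their class II levels had been seen, it was 21.4, 21.5 and 20.7 in Lin-kit+ against 7.94 and 6.88, so that the order of the groups reversed.

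Those clusters held most class II UMIs of the Lin-kit+ libraries. Cluster 11 made up 4.33 to 4.86% of Lin-kit+ cells (525 cells) and was named dendritic-like from 6 of 12 dendritic markers, among them Cd209a, Itgax and Batf3, and it also had 8 of 10 monocyte markers raised. It held 91.2 to 93.0% of the Cd74 UMIs, 94.1 to 97.0% of the H2-Aa UMIs, 85.8 to 88.9% of the H2-Ab1 UMIs and 92.8 to 97.5% of the H2-Eb1 UMIs of the 3 Lin-kit+ libraries. For H2-DMa the share was 14.4 to 16.7%, and for H2-K1, H2-D1 and B2m it was 2.38 to 5.03%, near the share of cells. Cd74 and the class II chains were concentrated in 1 cluster in this way, and class I and H2-DMa were not. The sort was lineage-negative and c-kit+, a gate meant to leave out mature cells, and mature and immature dendritic cells were not told apart here.

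In dendritic-like Lin-kit+ cells the 5 class II genes summed to 27981 ± 367 CPM (SD, n = 3), the highest class II level of any cluster at this resolution. At resolution 2 the level of the cluster named dendritic-like (33, 103 and 154 cells) was 18350 CPM, and another cluster with class II genes among its leading genes (27, 96 and 112 cells) was named monocyte-like from 7 of 10 markers, with 6 dendritic markers raised as well. Cd74 stood at 12649 ± 239 CPM, H2-Ab1 at 6364 ± 108, H2-Aa at 5921 ± 148, H2-Eb1 at 2126 ± 50.8 and H2-DMa at 920.4 ± 3.58 CPM. The class I sum was 4770 ± 55.4 CPM in the same cells, above the 4008 ± 61.4 CPM of the whole Lin-kit+ libraries and below the HSC-like cells. H2-D1 stood at 1494 ± 187 CPM there, against 818 to 947 CPM in the libraries, and H2-K1 at 579 ± 9.59 CPM against 582 to 622 CPM, so these heavy chains did not move in step.

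Plasma-like cells (cluster 17, 26 cells) separated the invariant chain from the class II chains. Cd74 stood at 12445 ± 2824 CPM, as in dendritic-like cells, while H2-Aa had 4 UMIs in the whole cluster, H2-Eb1 11 and H2-Ab1 28, against 974 for Cd74. The same cells had the highest class I sum of any cluster, 18045 ± 2451 CPM, of which B2m gave 14615 ± 2019 CPM. Cluster 14 (79 cells) joined late neutrophil markers to class II UMIs, and 64 of its 79 cells were called doublets, so its levels were not read further.

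In the reporter-positive libraries most class II UMIs lay in the HSC-like clusters. These clusters also held 1288 of the 1312 reporter-positive cells, so the shares given next follow largely from the mix of cells. The HSC-like clusters held 86.4% of the Cd74 UMIs in Fgd5+ and 98.1% in HSC-Fgd5+ cells, and between 85.6 and 98.6% for H2-Aa, H2-Ab1 and H2-Eb1. The remainder in the Fgd5+ library was mostly 1 dendritic-like cell, which alone held 209 of 1592 Cd74 UMIs and 106 of 797 H2-Ab1 UMIs. In the main HSC-like cluster (cluster 3) Cd74 stood at 369 CPM in Fgd5+ (95% Poisson interval 349.7 to 390) and 492 CPM (461 to 525) in HSC-Fgd5+ cells. H2-Aa stood at 247 and 273 CPM, H2-Ab1 at 173 and 205, H2-Eb1 at 112 and 148 and H2-DMa at 212 and 211 CPM. Class I differed by less between both gates, 8435 against 8496 CPM for the sum. Intervals cover counting error only, and with 1 library per gate the difference in Cd74 has no replicate check.

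The class II level of the stem cells lay far below that of dendritic-like cells and above that of the large progenitor clusters. For Cd74, H2-Aa, H2-Ab1 and H2-Eb1 summed, reporter-positive cells of the main HSC-like cluster stood at 902 and 1117 CPM, a mean of 1010 CPM. Dendritic-like cells stood at 27061 ± 368 CPM and plasma-like cells at 12924 ± 2748 CPM. Below the stem cells and cluster 14 came lymphoid-primed multipotent-like cluster 12, with Dntt and Il7r among its markers, at 246 ± 42.2 CPM. T or NK-like cells (145 ± 174 CPM, 1 library at 0), lymphoid-primed multipotent-like cluster 4 (121 ± 24.9 CPM) and erythroid-like cluster 8 (117 ± 131 CPM) followed with overlapping ranges. The place of cluster 8 rests partly on 1 cell, which held most of its 65 Cd74 UMIs. Megakaryocyte-like cells (cluster 9) stood at 67.9 ± 11.05 CPM and mast or basophil-like cells at 56.5 ± 6.09 CPM. Monocyte-like clusters 0 and 5 stood at 43.6 ± 28.0 and 35.4 ± 14.99 CPM. Neutrophil-like cluster 6 (20.1 ± 1.14 CPM), the unnamed cluster 7 (16.7 ± 3.09 CPM) and neutrophil-like clusters 2 (12.1 ± 0.60 CPM) and 1 (5.97 ± 0.58 CPM) stood lowest. From clusters 12 and 4 the stem cells differed 4.11-fold and 8.32-fold, and from neutrophil-like cluster 1 by 169-fold. Neighbours in this order overlapped between libraries in most places, as in clusters 12, 16, 4 and 8. Both reporter-positive values of the main HSC-like cluster lay outside the range of every Lin-kit+ cluster. For the 24 Lin-kit+ cells in cluster 3 itself, that rests on 47 UMIs of these genes. Those are too few to set Lin-kit+ and reporter-positive HSC-like cells apart. Levels by cluster are descriptions, without a test.

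**Figure D3:**
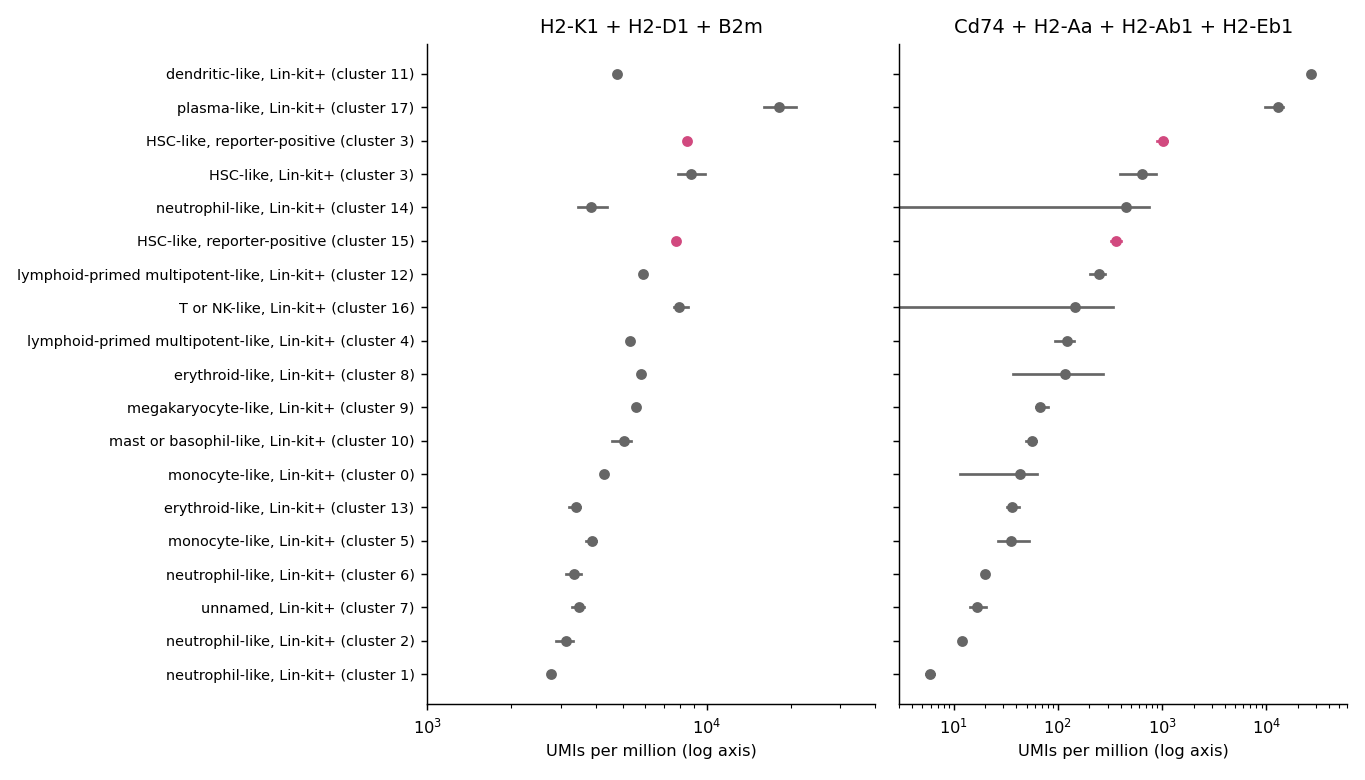
Summed level of the 3 class I genes (left) and of Cd74, H2-Aa, H2-Ab1 and H2-Eb1 (right) in each cluster, in CPM on log axes with different ranges. Points are means and lines the range over 3 Lin-kit+ libraries (grey) or 2 reporter-positive libraries (magenta), and a line that reaches the left edge has a library at 0. Class I spans less than 1 order of magnitude over the clusters, from 2770 to 18045 CPM, while class II spans from 5.97 to 27061 CPM.

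The class I order was different and much flatter. HSC-like cells stood at 8465 CPM in the reporter-positive libraries, and the 24 HSC-like cells of the Lin-kit+ libraries at 8803 ± 979 CPM. T or NK-like cells followed at 7950 ± 513 CPM, and their range overlapped that of the HSC-like Lin-kit+ cells. Lymphoid-primed multipotent-like cluster 12 stood at 5918 ± 137 CPM, erythroid-like cluster 8 at 5825 ± 75.7 and megakaryocyte-like cells at 5584 ± 137 CPM. Neutrophil-like cluster 1, with late granule genes such as Ltf among its markers, was lowest at 2770 ± 8.81 CPM, 3.06-fold below the stem cells. For H2-K1 alone the span was wider, from 1721 CPM in reporter-positive HSC-like cells to 235 ± 19.4 CPM in neutrophil-like cluster 1. H2-D1 in the latter cluster stood at 733 ± 43.9 CPM.

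HSC-like cells inside the Lin-kit+ libraries allowed a comparison within the same libraries. At the resolution used there were 8 such cells in each library in cluster 3, with 21 Cd74, 14 H2-Aa, 10 H2-Ab1 and 2 H2-Eb1 UMIs in all. Their Cd74 level was 215, 313 and 461 CPM, and that of the 4 genes together 644 ± 241 CPM. At a finer clustering (resolution 2) the clusters named HSC-like took in 67, 151 and 241 Lin-kit+ cells. Of these, 60, 144 and 233 were in 1 cluster that had 8 of 10 HSC markers raised, without Slamf1 and Mllt3, and with 5 lymphoid-primed multipotent and 3 dendritic markers raised as well. Together these cells had 318, 503 and 312 CPM of the 4 class II genes, below the 834, 811 and 782 CPM of the whole libraries. They lay above the 25.7, 44.2 and 42.4 CPM of the other cells only once clusters 11, 14 and 17 were left out, so the class II order is set by that omission. Class I summed to 7236 ± 268 CPM in them against 4008 ± 61.4 CPM in the whole libraries, higher in 3 of 3. H2-DMa stood at 294 ± 30.7 CPM in them, against 154 to 168 CPM in the whole libraries.

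Transcripts of Cd74 and the class II chains were spread over many stem cells. With each cell thinned to 1000 UMIs, a UMI of any of the 5 class II genes was seen in 54.2% of Fgd5+ (Wilson 95% interval 50.7 to 57.7%) and 54.8% of HSC-Fgd5+ cells (50.5 to 59.1%), 8 cells of the latter being too shallow. In the Lin-kit+ libraries the share was 19.4, 19.2 and 20.6%. H2-DMa, which is broadly transcribed, gave much of the latter. Without it the shares were 43.0 and 46.8% in the reporter-positive libraries and 7.47, 8.03 and 8.10% in Lin-kit+. Without thinning, 83.8% of reporter-positive cells had a UMI of the 5 genes.

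Clusters of cell types known for little class II RNA were set beside these shares. On the same 4 genes and at the same depth, the share was 0.20% in neutrophil-like cluster 1, 1.14% in cluster 2, 4.10% in erythroid-like cluster 13 and 4.66% in erythroid-like cluster 8. Their median depths were 5093, 5255, 7940 and 2543 UMIs per cell before thinning, against 4199.5 in reporter-positive cells. These clusters hold almost only Lin-kit+ cells, so they give no measure of free RNA in the reporter-positive libraries, where its part was not tested. Lymphoid-primed multipotent-like clusters 12 and 4 had shares of 17.5 and 12.3%, and dendritic-like cells 89.0%. Dendritic-like and stem cells also differed in how much a positive cell held. Of the dendritic-like cells, 75.0% had at least 10 of these UMIs, whereas most positive HSC-like cells had 1 (21.2% of all HSC-like Fgd5+ and 21.9% of all HSC-like HSC-Fgd5+ cells) or 2 (9.91 and 7.95%).

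**Figure D4:**
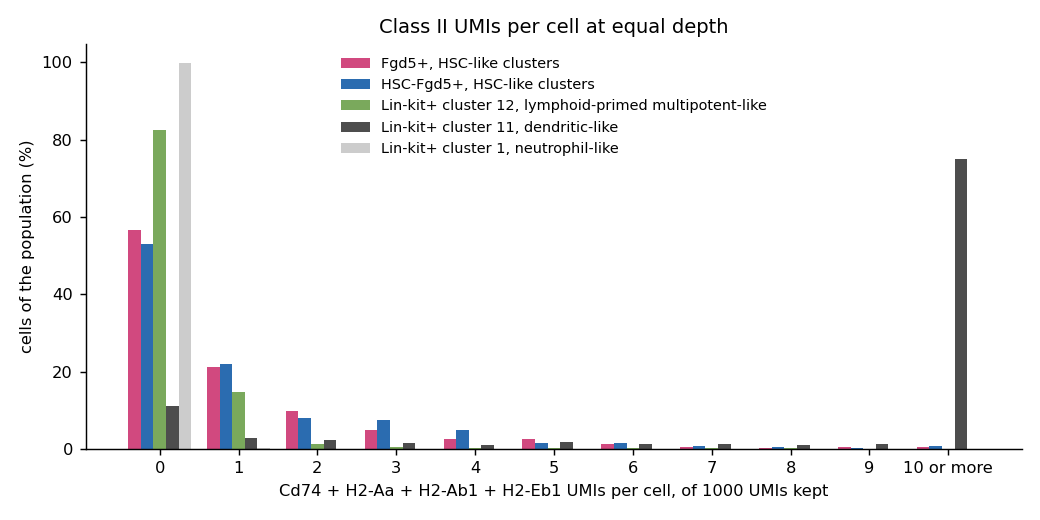
Share of cells (%) by the number of Cd74, H2-Aa, H2-Ab1 and H2-Eb1 UMIs per cell after each cell was thinned to 1000 UMIs. Bars are populations, and the last position pools 10 or more UMIs. HSC-like cells fall off gradually from 0, 75.0% of dendritic-like cells lie in the last position, and 99.8% of neutrophil-like cluster 1 cells have none.

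Within the stem cells the class II genes were detected together. Of HSC-like Fgd5+ cells of the main cluster with a Cd74 UMI at 1000 UMIs, 40.8% had an H2-Aa UMI, against 12.8% of those without. In HSC-Fgd5+ cells the shares were 36.4 and 16.3%. For H2-Ab1 they were 22.3 against 9.49% and 34.1 against 10.2%, and for H2-Eb1 26.6 against 8.03% and 28.8 against 8.75%. H2-DMa did not follow Cd74, with 20.1 against 20.6% in Fgd5+ and 19.7 against 19.0% in HSC-Fgd5+ cells. H2-K1 was found in 88.6 against 76.8% and in 85.6 against 82.8%. Cells are not replicates, and these shares describe both libraries without a test.

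Marker lists of dendritic cells and monocytes were lower in the same stem cells than in dendritic-like cells. Those of B-lymphoid cells and macrophages were not, but dendritic-like cells had little of either list themselves. They are thus no reference for those cell types, and no comparison with B-lymphoid cells or macrophages was made. Of 12 dendritic markers, Siglech, Cd209a, Itgax, Batf3, Clec10a, Spib and Cd7 were at 0 UMIs in the main HSC-like cluster of both reporter-positive libraries, where 3 counts would be 0.84 and 1.63 CPM. The list summed to 125 and 152 CPM there, and to 696 to 803 CPM in dendritic-like Lin-kit+ cells. Of 10 monocyte markers, summing to 133 and 138 CPM against 6225 to 6526 CPM in dendritic-like cells, Ly86 and Cx3cr1 were at 0 in both. Of 8 B-lymphoid markers in the table, summing to 51.3 and 56.4 CPM against 29.8 to 38.6 CPM in dendritic-like cells, Igll1 and Ebf1 were among those at 0 in both. The 7 macrophage markers summed to 8.36 and 9.23 CPM against 3.84 to 7.44 CPM, with Adgre1 at 0 in both reporter-positive libraries, and the 4 plasma markers in the table to 6.69 and 8.68 CPM against 0 to 7.69 CPM, with none at 0. In cells with a Cd74 UMI, here without thinning, the 10 HSC markers summed to 2481 and 2567 CPM, and in cells without one to 2130 and 2253 CPM. Median depths with and without a Cd74 UMI were 4120 and 4359 UMIs in Fgd5+ cells. In HSC-Fgd5+ cells they were 4244 and 3038 UMIs, so depth is mixed into the split there. The dendritic list in the same split was 142 and 158 CPM against 108 and 147 CPM.

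The second HSC-like cluster (cluster 15, 45 Fgd5+ and 28 HSC-Fgd5+ cells) held dividing cells, and in it the classes parted. The 10 division markers, such as Mki67 and Top2a, summed to 3964 and 4369 CPM, against 102 and 120 CPM in the main cluster. Class I summed to 7701 and 7858 CPM, near the 8435 and 8496 CPM of the main cluster. Cd74 stood at 106 CPM (95% Poisson interval 78.8 to 140) in Fgd5+ and 78.8 CPM (49.9 to 118) in HSC-Fgd5+ cells, against 369 and 492 CPM in the main cluster. H2-Aa stood at 110.5 and 85.6 CPM against 247 and 273, and H2-Eb1 at 57.4 and 41.1 CPM against 112 and 148. For H2-Ab1 the gap was narrower, 129.6 and 119.8 CPM against 173 and 205 CPM. All 4 genes were lower in the dividing cells of both libraries. Intervals of Cd74, H2-Aa and H2-Eb1 did not meet those of the main cluster. The intervals, here and for levels per cell below, cover counting error and not the spread between cells.

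Dividing cells carried more RNA, with medians of 9920 and 9908 UMIs per cell against 4204.5 and 3591, so levels per cell were also compared. Class I UMIs rose with cell content, from 41.3 to 80.6 per cell in Fgd5+ and from 32.4 to 82.0 per cell in HSC-Fgd5+ cells. Cd74 went the other way, from 1.81 (1.71 to 1.91) to 1.11 UMIs per cell (0.82 to 1.46) in Fgd5+ and from 1.88 (1.76 to 2.004) to 0.82 (0.52 to 1.23) in HSC-Fgd5+ cells. H2-Aa was 1.21 and 1.16 UMIs per cell in Fgd5+, and 1.04 and 0.89 in HSC-Fgd5+ cells, with intervals that overlapped. H2-Eb1 was 0.55 and 0.60 UMIs per cell in Fgd5+, and 0.56 and 0.43 in HSC-Fgd5+ cells, also with overlapping intervals. H2-Ab1 went from 0.85 (0.78 to 0.92) to 1.36 (1.04 to 1.74) in Fgd5+ and from 0.78 (0.70 to 0.86) to 1.25 (0.87 to 1.74) in HSC-Fgd5+ cells, so it was higher per cell while lower as CPM. H2-DMa rose from 1.04 to 2.42 and from 0.81 to 1.43 UMIs per cell. Of the class II genes, Cd74 was the one that was lower in dividing HSC-like cells with intervals that did not meet by either measure in both libraries. Clusters 3 and 15 were split on other genes of the same cells, and the values are descriptions.

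The make-up of class II UMIs by gene also varied with the cell type. Capture may differ between transcripts, so shares of 1 gene are compared across populations, not genes with each other. Of the UMIs of Cd74, H2-Aa, H2-Ab1 and H2-Eb1, H2-Ab1 gave 22.9 to 23.9% in dendritic-like cells of the 3 Lin-kit+ libraries and 19.2 and 18.3% in the main HSC-like cluster. H2-Aa gave 21.7 to 22.2% and 27.4 and 24.4%, and H2-Eb1 7.65 to 7.98% and 12.4 and 13.2%. Cd74 gave 46.5 to 47.0% and 40.9 and 44.1%. The main HSC-like cluster thus lay outside the dendritic-like range for each of the 4 genes in both libraries. The shares are parts of the same total, so these are not 4 separate results, and their counting error was not computed. In dividing HSC-like cells (cluster 15) Cd74 gave 25.6%, H2-Aa 27.0%, H2-Ab1 33.7% and H2-Eb1 13.7%. In HSC-like Lin-kit+ cells at resolution 2, H2-Ab1 gave 192 of 511 UMIs. Most of those cells were in the cluster that also had lymphoid-primed multipotent markers raised. In the 24 Lin-kit+ cells of cluster 3, H2-Ab1 gave 10 of 47 UMIs (21.3%). The H2-Ab1 share thus varied with the HSC-like cells chosen.

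In some progenitor clusters the few class II UMIs were mostly H2-Ab1. Erythroid-like cluster 13 had 80 H2-Ab1 UMIs of 87, neutrophil-like cluster 6 had 123 of 136, neutrophil-like cluster 2 had 73 of 89 and mast or basophil-like cells had 108 of 134. The share was lower in other clusters of the same names, with 88 of 205 in erythroid-like cluster 8 and 23 of 50 in neutrophil-like cluster 1. In cluster 8, however, 1 cell held most of the 65 Cd74 UMIs, so the lower share there rests partly on that cell. Dendritic-like cells of the same libraries had 22073 Cd74 and 11178 H2-Ab1 UMIs, the opposite order. How much free RNA adds to these low levels was not tested. H2-Ab1 was found in 24.2% of the cells of cluster 13 without thinning, and Cd74 in 0.68% of them. Lymphoid-primed multipotent-like cluster 4 lay between, with 53.1% H2-Ab1 and 19.3% Cd74.

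**Figure D5:**
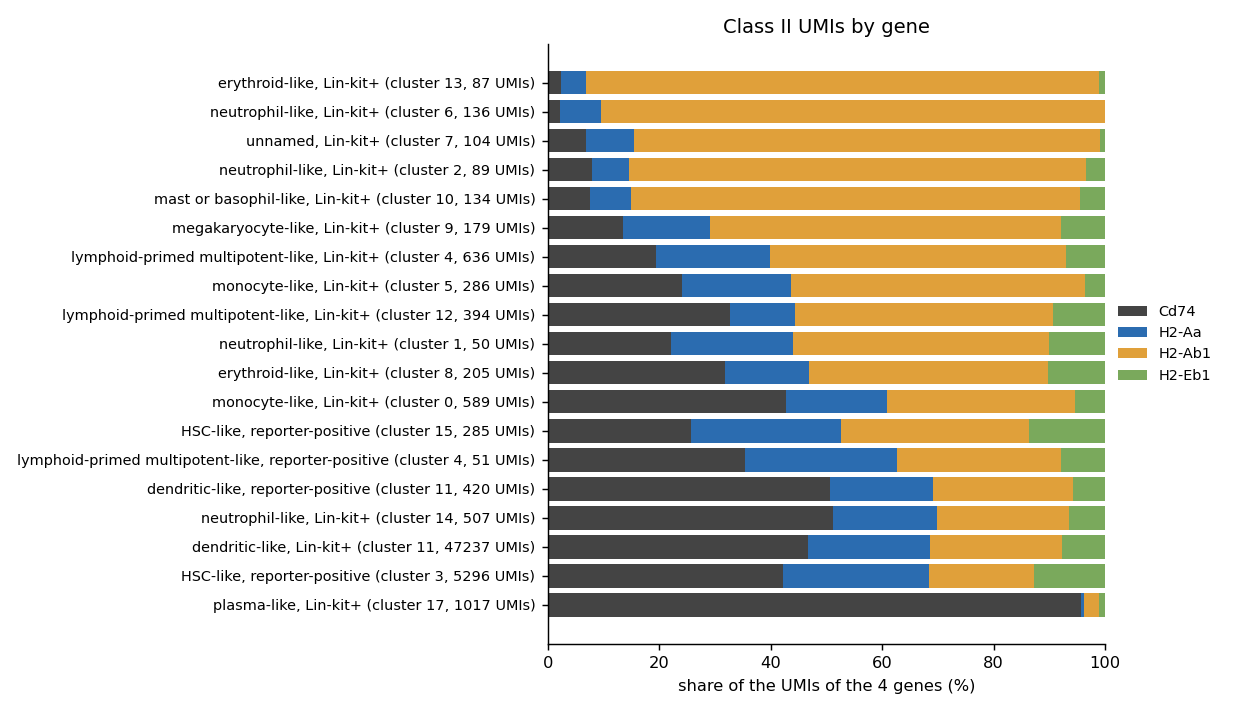
Share (%) of the UMIs of Cd74, H2-Aa, H2-Ab1 and H2-Eb1 that each gene gave, by cluster and group, with all libraries of the group summed, for populations with at least 50 such UMIs. Clusters are ordered by the share of H2-Ab1, from 2.75% in plasma-like cells, which are nearly all Cd74, to 92.0% in erythroid-like cluster 13.

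H2-DMa was the class II member that followed its own course. It was highest in dendritic-like cells (920.4 ± 3.58 CPM), and then stood at 371 ± 19.9 CPM in lymphoid-primed multipotent-like cluster 12, 245 ± 21.2 in cluster 4 and 238 ± 18.7 and 237 ± 16.9 CPM in the monocyte-like clusters 5 and 0. The reporter-positive HSC-like cells, at 212 and 211 CPM, ranked below all of these, and above megakaryocyte-like cells at 186 ± 12.3 CPM. HSC-like Lin-kit+ cells at resolution 2 stood higher, at 294 ± 30.7 CPM, so this rank depended on the HSC-like cells chosen. Erythroid-like cluster 13 stood at 43.1 ± 7.65 CPM and neutrophil-like cluster 1 at 14.8 ± 1.20 CPM.

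Cd74 spans 60803848 to 60812652 of chromosome 18. In Lin-kit+ cells outside the dendritic-like, plasma-like and HSC-like clusters and the doublet-rich cluster 14 its level was at most 82.8 ± 19.6 CPM, in lymphoid-primed multipotent-like cluster 12. It stood at 22.02 ± 15.3 CPM in cluster 4 (the 8 reporter-positive cells of that cluster had 18 UMIs, at 159 and 1098 CPM in the 2 libraries), 5.43 ± 2.68 CPM in mast or basophil-like cells and 0.35 ± 0.31 CPM in neutrophil-like cluster 6, where 3 UMIs were counted over 1008 cells. In the erythroid-like cluster 8 the mean of 37.3 CPM rested on 1 cell with 61 of 65 UMIs. Leaving out clusters 11, 14 and 17 from every library, the log2 fold change of reporter-positive over Lin-kit+ libraries was 4.57 for Cd74, 4.47 for H2-Aa, 4.79 for H2-Eb1 and 2.301 for H2-Ab1, and -0.0049 for H2-DMa. Those values are given without a test, because the clusters were picked by their class II content. H2-K1, H2-D1 and B2m moved little under the same omission, with 0.94, 0.54 and 0.38.

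The wider pathway was read from lists fixed with earlier results of these data known. Each count below stands against 32.7% of all genes higher and 30.4% lower with TMM, and 54.9% higher and 16.6% lower with library totals, and nothing particular to a list is read from it. Of 11 other class I heavy chains tested (12 in the table), 9 were higher, 0 lower and 2 did not pass, with a median log2 fold change of 1.72 against 0.07 for all genes (edgeR adjusted p under 0.05). With library totals 10 were higher and 0 lower. H2-Q4 rose from 20.9, 21.3 and 15.9 CPM to 153 and 197 CPM (log2 fold change 2.64), H2-Q6 by 2.35 and H2-T22 by 1.82. Mr1, which presents vitamin metabolites to MAIT cells, rose by 2.35 to 11.8 and 10.6 CPM. The H2-Q genes are close copies of each other, and the counting could split their reads.

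Genes of class I antigen processing did not rise together. Of 13 tested, 2 were higher, 8 lower and 3 did not pass with TMM (median log2 fold change -0.27), and 8 were higher and 4 lower with library totals (median 0.27 against 0.60 for all genes). Both that rose with TMM, Tap1 (0.56) and Tap2 (0.49), form the transporter that brings peptides to class I molecules. Calr, an endoplasmic reticulum chaperone, fell by 1.78, Psme2, a proteasome activator subunit, by 1.19, the chaperone Pdia3 by 0.93 and Psmb8, an immunoproteasome subunit, by 0.74, and these 4 were lower under both scalings.

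Of 10 other genes of class II loading tested (11 in the table), 1 was higher, 6 lower and 3 did not pass (median log2 fold change -1.16), and with library totals 3 were higher and 5 lower. Ctsl, a cathepsin, was the gene that rose (1.59). Ifi30, a thiol reductase of endosomes, fell by 3.24, Ctss, the cathepsin that trims the invariant chain in dendritic and B cells, by 2.37, and the protease Lgmn by 2.24. Ctss stood at 69.9, 73.4 and 79.8 CPM in Lin-kit+ and at 22.6 and 18.5 CPM in reporter-positive cells. March1, a ubiquitin ligase that removes class II from the surface, had 18, 36 and 84 UMIs in the Lin-kit+ libraries and 2 and 0 in the reporter-positive ones. Ctss is also on the list of monocyte markers, and monocyte-like clusters 0 and 5 held 1628 and 1079 Lin-kit+ cells. The part of the cell mix in these differences was not tested.

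Among 14 regulators, 7 were higher, 4 lower and 3 did not pass (median log2 fold change 0.69), with 9 higher and 2 lower under library totals, near the shares of all genes. Nlrc5, the class I coactivator, rose by 1.73 ± 0.24 (edgeR adjusted p = 0.000718), from 2.90, 3.10 and 2.44 CPM to 11.04 and 16.6 CPM. Ciita, the class II coactivator, had 81 UMIs in all, at 1.20, 1.02 and 0.94 CPM in Lin-kit+ and 2.88 and 1.85 CPM in reporter-positive cells, with a log2 fold change of 0.76 ± 0.35 (edgeR adjusted p = 0.0997). Of the 65 Ciita UMIs in Lin-kit+ libraries 60 were in dendritic-like cells (35.1 ± 3.13 CPM), and the main HSC-like cluster held all 16 of the reporter-positive ones, at 3.34 and 2.17 CPM. In the large neutrophil-like, monocyte-like and lymphoid-primed multipotent-like clusters Ciita was at 0 UMIs. There 3 counts would be 0.27 CPM in the largest of them (cluster 0), 0.60 CPM in cluster 4 and 1.74 CPM in cluster 12. The last value is near the 2.17 CPM of HSC-Fgd5+ cells, so a lower Ciita level in cluster 12 is not shown. Irf2 rose by 1.68, Rfxap, a subunit of the RFX complex, by 1.62, and Irf8, a factor of dendritic cells and monocytes, fell by 5.71, from 401 to 442 CPM in Lin-kit+ to 14.9 and 6.46 CPM. The other 3 that fell were Nfyb, Nfyc and Creb1.

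Of 7 genes of co-stimulation, Cd80 and Cd40 had too few UMIs to be tested and were at 0 in both reporter-positive libraries, where 3 counts would be 0.72 and 1.38 CPM. Of the 5 tested, 4 were higher and 1 lower (median log2 fold change 1.46), and 4 higher and 0 lower with library totals. Cd274, which encodes the inhibitory ligand PD-L1, rose by 3.09 ± 0.32 (edgeR adjusted p = 0.000164), from 0.60, 0.54 and 0.91 CPM to 10.3 and 7.38 CPM. Icam1, an adhesion molecule, rose by 1.46 and Cd86, a ligand of CD28, by 0.99. Pdcd1lg2 was the fourth that rose and Icosl the 1 that fell, each with under 100 UMIs.

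Genes whose level followed the members over the named cell classes were ranked by Pearson's r of log2(CPM + 1), over 12 points (10 named classes of Lin-kit+ cells and the reporter-positive libraries) that share libraries and depth. For the class I sum they were Malat1 (r = 0.95), Laptm4a (0.94), Ttc19 (0.93), Pfdn5 (0.92) and Tmem176a (0.92), and for the class II sum they included Plekhm3 (0.90), Ppt1 (0.89), Tnfrsf13c (0.87) and Slamf7 (0.86). Over the same points the class II sum correlated with H2-K1 at 0.29, with B2m at 0.54 and with H2-D1 at 0.59. The class I sum correlated with Cd74 at 0.62, H2-Eb1 at 0.41, H2-Ab1 at 0.31, H2-Aa at 0.07 and H2-DMa at -0.41.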

How the data were processed

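Single cells were profiled with 10x Chromium 3′ V2 chemistry. The authors deposited 1 table of raw UMI counts per gene and cell for all 5 libraries. The submitters' processing notes name Cell Ranger 1.3 and 2.1, Seurat 2.3.4 and mm10, without roles. Barcode suffixes carry no population name, so libraries were assigned from the cell numbers given in the study's text (793, 519 and 11581 over 3 libraries). The 8 members, the lists and the tests were chosen with earlier results of these data known.

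Library depths were 10000606, 18683092 and 36080242 UMIs (Lin-kit+ a, b and c), 4168367 (Fgd5+) and 2166655 (HSC-Fgd5+). All cells were kept. Doublets were called with Scrublet (scanpy 1.11.5) and kept in the main values. Cells were clustered (2000 variable genes, 20 principal components, Leiden resolution 1, leidenalg 0.10.2) without MHC, antigen-processing and co-stimulation genes and Fgd5. UMIs of each library were added up per gene and tested with edgeR 4.0.16 (R 4.3.3; TMM, filterByExpr, quasi-likelihood F-test, Benjamini-Hochberg over 11991 genes). The procedure was tested on simulated data. Intervals are Wilson or exact Poisson at 95% and, like limits from 3 counts, cover counting error only. Cells were thinned to 1000 UMIs for shares.

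Alternatives were DESeq2 1.42.0, library totals, no filter on low counts, a cell filter, doublets left out, other resolutions and depths, each library left out and, chosen after seeing the data, clusters 11, 14 and 17 left out, reporter-positive cells outside the HSC-like clusters left out and class II without H2-DMa. From each list, up to 4 genes past the threshold with at least 100 UMIs and the largest change were named, with Ciita and Nlrc5 always. Tap1, Tap2, Ctsl, Nfyb, Nfyc, Creb1, Pdcd1lg2, Icosl, Cd80 and Cd40 fall outside that rule and were named after their values were seen. Some genes of these lists and rankings are not reported here.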

Additional observations from a re-analysis of the deposited data

How the results depend on the processing

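H2-K1, H2-D1 and B2m were higher in reporter-positive libraries under all 12 alternatives. H2-Eb1 was too, but 1 of these left out clusters 11, 14 and 17, picked by their class II content. Without HSC-Fgd5+ its change was 0.28. Of 149 recomputed values, 83 for single genes kept their direction and their side of the threshold. For whole comparisons 44 stayed within their error or, for counts of genes called, within a set fold of the main count. Genes called numbered 5964 to 8579 and MHC genes called 5 to 7. With library totals Cd74 (0.12), H2-Aa (0.54) and H2-DMa (0.35) turned positive on the log2 scale, as the scaling itself moves all genes up. H2-Aa, at -0.0030 in the comparison as reported, was 0.028 with the cell filter and 0.018 without doublets, and -0.026 to 0.0050 with 1 library left out. Without clusters 11, 14 and 17 Cd74 was 4.57, H2-Aa 4.47 and H2-Ab1 2.301, and the log2 difference in class I to class II ratio was -1.52, because most Lin-kit+ class II UMIs were left out. That difference was 0.69 without Cd74, 0.84 with HSC-like reporter-positive cells alone and 0.74 to 0.81 with 1 library left out. H2-DMa passed the threshold with DESeq2 (-0.25, adjusted p = 0.0497) and without the filter on low counts (edgeR, -0.26, adjusted p = 0.0286). The share of reporter-positive cells with a class II UMI was 71.4% at 2000 UMIs, 83.8% unthinned, 46.2% without Cd74 and 44.5% without H2-DMa, so it moved with depth and with the genes counted. At resolution 2 the class II level of dendritic-like Lin-kit+ cells was 18350 CPM, with another cluster rich in class II named monocyte-like, and the class I level of HSC-like Lin-kit+ cells 7236 CPM against 8650 CPM at resolution 1 (25 cells). The cause of these shifts was not tested. No paired analysis was possible because the barcode suffixes carry no replicate numbers shared between the groups. Only 2 reporter-positive libraries, 1 for each gate, limit every comparison, and genes with few UMIs, such as Ciita, are limited by depth.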
